A study of Homo sapiens with 4 samples.

Results

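The genes described here are *IRF1*, *BATF3*, *CIITA*, *GBP1*, *GBP2*, *GBP3*, *GBP4*, *WARS*, *IDO1* and *SOCS1*, a set of 10 genes of the interferon-gamma and IRF1 arm, taken by symbol from the 57820 genes of the count table. They were measured by RNA-seq in SK-N-SH cells, an established human neuroblastoma line of wild type genotype. OE cells carried a lentivirus with *RP5-998N21.4*, a long noncoding RNA driven by the EF1a promoter. Vector control cells carried the same lentivirus without an insert, although their titles read WT. Each group had 2 libraries, and nothing says whether they came from separate cultures, so p-values measure only the spread between these libraries, which may be technical.

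Interferon-gamma binds a receptor that signals through the kinases JAK1 and JAK2 to the GAS element (TTCNNNGAA) in target promoters. One of those targets is IRF1, a transcription factor that in turn binds the interferon-stimulated response element (ISRE), searched here as GAAA, any 2 bases and GAAA. Guanylate-binding proteins (GBPs), CIITA, IDO1 and the tryptophanyl-tRNA synthetase WARS are classical targets of this arm, and SOCS1 is an inhibitor of JAK kinases that the arm itself induces. Type I interferons reach part of the same promoters.

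The promoters of 6 of the 10 genes (*IRF1*, *GBP1*, *GBP3*, *GBP4*, *WARS* and *SOCS1*) were taken from RefSeq (GRCh38.p14) as windows from 250 bases before to 50 bases after the start site, and *WARS* has 2 such windows. The windows of *GBP2*, *CIITA*, *BATF3* and *IDO1* were not used here. Both strands were searched for the ISRE letters, and the GAS letters read alike on both strands. The 4 windows below, each 5′ to 3′ on the strand of the gene, are shown because they carry these letters in front of the gene with the highest level per length (*WARS*), of members of the same gene cluster whose values lay on opposite sides (*GBP4* and *GBP1*) and of the transcription factor of the arm (*IRF1*). Capitals mark the ISRE or GAS letters.

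WARS, second start site, chr14:100375298-100375597, minus strand: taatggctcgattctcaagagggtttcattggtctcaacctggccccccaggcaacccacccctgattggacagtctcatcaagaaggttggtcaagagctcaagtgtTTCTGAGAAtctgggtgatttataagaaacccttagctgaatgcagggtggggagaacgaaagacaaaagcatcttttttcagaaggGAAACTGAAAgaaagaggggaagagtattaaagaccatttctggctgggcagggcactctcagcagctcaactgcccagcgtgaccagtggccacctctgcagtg

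GBP4, chr1:89198893-89199192, minus strand: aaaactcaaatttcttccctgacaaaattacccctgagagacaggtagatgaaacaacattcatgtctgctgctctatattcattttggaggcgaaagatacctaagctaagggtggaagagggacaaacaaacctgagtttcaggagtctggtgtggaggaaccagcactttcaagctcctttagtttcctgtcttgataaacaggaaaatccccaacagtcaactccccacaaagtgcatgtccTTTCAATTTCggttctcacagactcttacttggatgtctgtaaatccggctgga

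GBP1, chr1:89065159-89065458, minus strand: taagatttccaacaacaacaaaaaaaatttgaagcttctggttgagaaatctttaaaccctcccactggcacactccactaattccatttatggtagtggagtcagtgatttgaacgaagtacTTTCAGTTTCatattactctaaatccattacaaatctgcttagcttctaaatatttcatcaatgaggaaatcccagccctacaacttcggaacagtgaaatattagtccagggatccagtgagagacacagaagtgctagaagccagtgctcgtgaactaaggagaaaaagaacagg

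IRF1, chr5:132490724-132491023, minus strand: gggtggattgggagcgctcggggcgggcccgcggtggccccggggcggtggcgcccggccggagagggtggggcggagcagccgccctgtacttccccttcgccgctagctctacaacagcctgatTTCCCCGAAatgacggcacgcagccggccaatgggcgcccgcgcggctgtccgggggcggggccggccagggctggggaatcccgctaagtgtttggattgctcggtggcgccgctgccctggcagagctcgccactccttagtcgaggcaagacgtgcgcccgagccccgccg

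The *WARS* window held both motifs, the GAS letters 142 bases and the ISRE letters 55 bases before the start site. The ISRE letters began 127 bases before the start of *GBP1* and 4 bases before that of *GBP4*, and the GAS letters began 124 bases before the start of *IRF1*. *SOCS1* held the ISRE letters 113 bases before its start, and *GBP3* held the GAS letters 15 bases before its start and the ISRE letters just after it. The other *WARS* window held neither. Among all 35116 promoter windows in the RefSeq table, 3.57% held the ISRE letters and 7.66% the GAS letters, against 5 and 3 of the 7 windows here. These matches are descriptions of the windows, not measured binding sites.

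The 4 libraries held from 23785164 to 28307591 counts. Transcript counts were added up by gene, expressed as CPM (counts scaled to a common library size after TMM normalization) and compared by the quasi-likelihood test of edgeR on 20528 genes. *RP5-998N21.4* was counted 32 and 33 times in the control libraries and 2407 and 2808 times after OE. A call was set at adjusted p under 0.01 plus a log2 fold change beyond 0.5 either way. By it edgeR called 0 genes (0%), and so 0 of the 10, while 4269 genes had an unadjusted p under 0.05. Even *RP5-998N21.4*, 69.2-fold higher (edgeR adjusted p = 0.0109), was not called, so the 0 of the 10 says little about these genes. DESeq2 called 1800 genes and limma-voom 0. At an unadjusted p under 0.05, 10.1% of all tested genes lay higher after OE and 10.7% lower by edgeR's test. In 27.8% of genes the lower OE library exceeded the higher vector control library, and in 27.6% the reverse held. An exact permutation test of 2 libraries against 2 cannot give a two-sided p below 0.333.

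All 10 genes passed the filter on low counts. *WARS*, *BATF3* and *GBP4* were higher and *GBP1* and *GBP2* lower in the OE libraries at an unadjusted p under 0.05. *GBP3* and *SOCS1* lay lower in both OE libraries, and *IDO1* higher, without passing that p. *IRF1* and *CIITA* overlapped between the groups. In all, 4 of the 10 had both OE libraries above and 4 both below the vector control libraries. The median log2 fold change of the 10 genes was -0.07, against 0.01 over all tested genes. DESeq2 called *WARS*, *BATF3* and *GBP4* higher, where it called 4.35% of all genes, and *GBP2* lower, where it called 4.42%. The plot of expression by library shows the levels behind these counts.

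**Figure D1:**
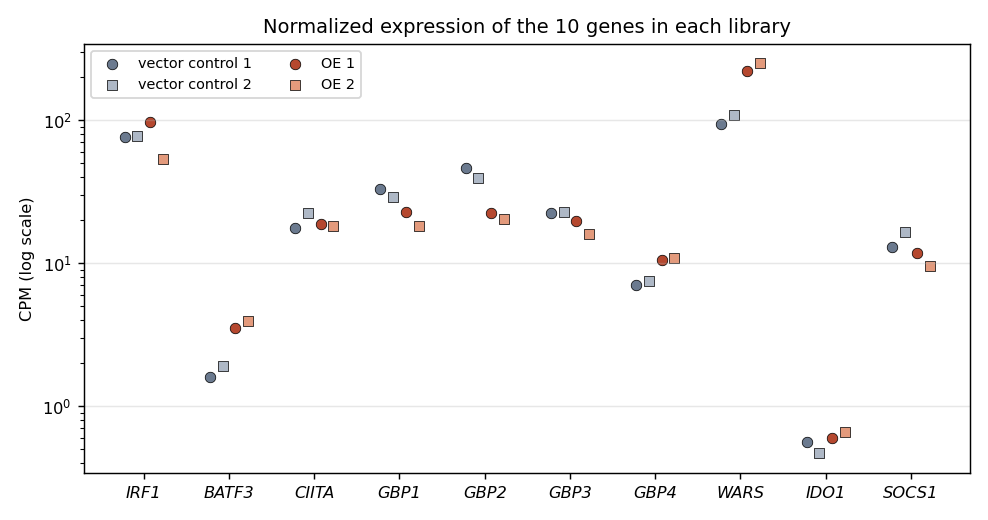
Expression of the 10 genes in CPM on a log axis, with 1 point per library (vector control in grey, OE in red). The OE points of *WARS*, *BATF3* and *GBP4* lie above both vector control points, those of *GBP1* and *GBP2* below, and the OE points of *IRF1* lie on either side.

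In level per length (CPM per kb of the transcripts that held the counts), *WARS* was the highest in both groups, at 39.2 ± 3.69 (SD, n = 2) in the vector control and 92.0 ± 8.02 (SD, n = 2) in the OE libraries. *IRF1* followed at 17.1 ± 0.0228 and 15.8 ± 6.31 (SD, n = 2 each). In the vector control, *SOCS1* (11.9 ± 2.05), *GBP2* (11.6 ± 1.37) and *GBP1* (10.8 ± 0.959) did not differ beyond their SD. In the OE libraries, *SOCS1* stood at 8.64 ± 1.22, *GBP1* at 7.15 ± 1.13 and *GBP2* at 5.84 ± 0.394. *GBP3* was at 6.17 ± 0.0347 and 5.34 ± 0.0652, in this order of groups. In OE replicate 2 its counts lay on a transcript of 3037 nt, not 3678 nt, which brings the OE libraries closer together. In CPM these libraries were at 19.8 and 15.9. Below *GBP3*, *CIITA* (1.76 and 1.80), *GBP4* (1.18 and 1.74), *BATF3* (0.890 and 2.02) and *IDO1* (0.334 and 0.412) formed the low end. In the OE libraries *CIITA* (1.80 ± 0.443) did not differ beyond the SD from *BATF3* (2.02 ± 0.211) or *GBP4* (1.74 ± 0.0494). The lengths came from a later annotation release than the table's transcripts, which gives the main *CIITA* transcript 16061 nt. The low place of *CIITA* rests on this length. In CPM *CIITA* was not higher after OE, at 18.4 ± 0.378 against 20.1 ± 3.62 in the vector control (SD, n = 2 each). A *CIITA* transcript of 567 nt, with 8 and 5 counts against 14 and 6, weighs more per length than in CPM.

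IRF1 binds the ISRE and activates much of the interferon-gamma response. Its gene lies on the minus strand of chromosome 5 of hg19 from 131776132 to 131844411. *IRF1* had 1763 and 1817 counts under vector control against 2453 and 1542 under OE. The OE libraries lay on either side of the vector control, at 97.8 and 53.3 CPM against 75.7 and 77.3 CPM. Its log2 fold change came to -0.02 ± 0.327 (SE, edgeR adjusted p = 0.98). OE replicate 1 and OE replicate 2 decided its sign, since it was -0.52 without the former and 0.35 without the latter. With 1 OE library left, the spread between replicates comes from the vector control pair alone.

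The transcripts of *IRF1* told the groups apart more than the gene total did. The protein-coding transcript ENST00000245414.4, whose start coincides with that of the promoter shown above when the window's sequence is matched to GRCh37, held 585 and 547 counts under vector control against 248 and 186 under OE. That was 33.2% and 30.1% of the gene's counts against 10.1% and 12.1%. Both OE libraries lay below both vector control libraries in counts and in share. Most other counts were on ENST00000472045.1, annotated as a retained intron and starting 1741 bases further downstream, with 1172 and 1267 against 2194 and 1344. Exons of *IRF1-AS1* on the other strand overlap those of *IRF1*. In an edgeR fit across 30255 transcripts, chosen after the values were seen, the protein-coding transcript had a log2 fold change of -1.58 ± 0.285 (SE, edgeR adjusted p = 0.185). The retained-intron transcript had 0.35 ± 0.375 (SE, edgeR adjusted p = 0.835).

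In that fit 15 transcripts of the 10 genes were tested, and 4 were higher and 3 lower at an unadjusted p under 0.05, against 6.98% and 7.58% of all transcripts. The main transcripts of *WARS*, *BATF3* and *GBP4* and 1 transcript of *IDO1* were higher, and the main transcripts of *GBP1* and *GBP2* and the protein-coding transcript of *IRF1* lower. The *IDO1* transcript had 0 counts in both vector control libraries and passed the filter on low counts through the OE libraries alone, so it had to differ, which leaves 3 higher. The assignment of counts to transcripts changed between libraries in ways the gene totals did not. All 527, 536 and 497 counts of *GBP3* in both vector control libraries and OE replicate 1 were on ENST00000370482.2, which had 0 counts in OE replicate 2, where ENST00000370481.4 held 457. The former is annotated as a retained intron and the latter as protein-coding. Bowtie2, which the authors used, places a read without splitting it across an intron, and its part in these transcript counts was not tested.

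**Figure D2:**
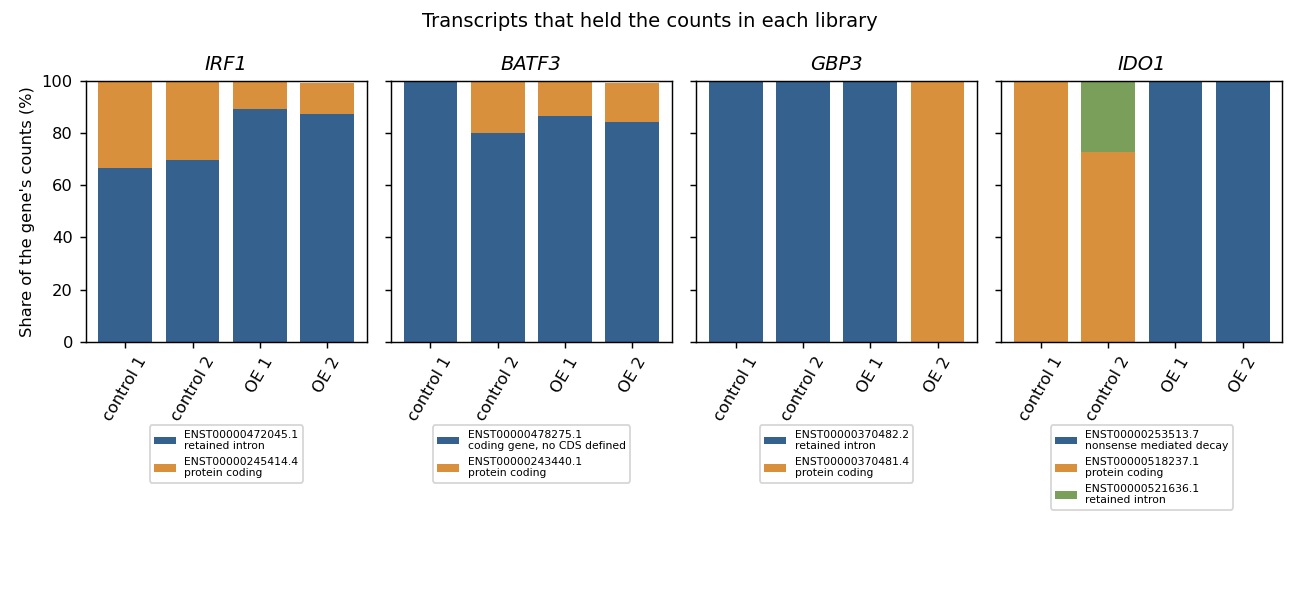
Share of a gene's counts (%) on each transcript in each library for *IRF1*, *BATF3*, *GBP3* and *IDO1*, coloured by transcript. The protein-coding transcript of *IRF1* takes 33.2% and 30.1% in the vector control and 10.1% and 12.1% in the OE libraries, while *GBP3* changes transcript in OE replicate 2 alone.

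BATF3 is a transcription factor of the AP-1 superfamily, known from cross-presenting dendritic cells. *BATF3* (chromosome 1, minus strand, 212859759 to 212873182) was counted 37 and 45 times in the control libraries and 89 and 114 times after OE. The groups did not overlap. Expression was 1.75 ± 0.231 CPM in the vector control and 3.74 ± 0.279 CPM in the OE libraries (SD, n = 2 each), 2.13-fold higher. The log2 fold change was 1.09 ± 0.213 (SE, edgeR adjusted p = 0.118), with 0.96 to 1.23 when each library was left out, and the adjusted p was 0.00182 by DESeq2. From 80% to all of its counts lay on ENST00000478275.1, a transcript without a defined coding sequence.

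CIITA is the coactivator that switches on MHC class II genes. *CIITA* (chromosome 16, plus strand, 10960079 to 11036878) had 408 and 532 counts under vector control against 468 and 524 under OE. In CPM both OE libraries (18.7 and 18.1) lay between the vector control libraries (17.5 and 22.6). This gave a log2 fold change of -0.13 ± 0.170 (SE, edgeR adjusted p = 0.721), which turned on the control libraries, at -0.30 when replicate 1 of the vector control was left out and 0.06 when its replicate 2 was. Exons of *DEXI* on the other strand overlap those of *CIITA*, and without a stated use of strand their reads cannot be told apart.

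GBPs are large GTPases that attack the membranes of intracellular pathogens and their vacuoles. In hg19 the annotation places *GBP3*, *GBP1*, *GBP2*, *GBP7*, *GBP4* and *GBP5* in this order along the minus strand of chromosome 1, followed by *GBP6* and the pseudogene *GBP1P1* on the plus strand, within 419.4 kb. *GBP2* was counted 1077 and 920 times in the control libraries and 566 and 592 times after OE. Each OE library was well below each vector control library, with 21.5 ± 1.48 CPM after OE against 42.7 ± 5.02 CPM (SD, n = 2 each). *GBP2* (89571815 to 89616139) was thus 1.99-fold lower, a log2 fold change of -0.99 ± 0.137 (SE, edgeR adjusted p = 0.0814, DESeq2 adjusted p = 9.91e-09). With each library left out it lay between -1.11 and -0.87. The transcript with nearly all *GBP2* counts, ENST00000464839.1, is annotated as a nonsense-mediated decay transcript, not as protein-coding. It shares 622 identical bases with *GBP7*, which overlaps *GBP2* on the same strand and had at most 5 counts in any library.

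*GBP1* (89517565 to 89531043) had 768 and 683 counts under vector control against 575 and 529 under OE. It was lower in both OE libraries, at 20.6 ± 3.27 CPM against 31.0 ± 2.77 CPM (SD, n = 2 each). The log2 fold change was -0.59 ± 0.166 (SE, edgeR adjusted p = 0.185, DESeq2 adjusted p = 0.0124). Leaving out vector control replicate 1 (-0.50), vector control replicate 2 (-0.68) or OE replicate 2 (-0.44) kept the sign but not the unadjusted p under 0.05. The *GBP1* transcript is 95.6% identical to that of *GBP1P1* over 1432 aligned bases and 87.8% identical to that of *GBP3* over 2151, so reads could be shared. *GBP1P1* held from 18 to 38 counts per library, a small part of the counts of *GBP1*.

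*GBP3* (89472362 to 89488577) was counted 527 and 536 times in the control libraries and 497 and 459 times after OE. In CPM the OE libraries (19.8 and 15.9) were both below the vector control libraries (22.6 and 22.8). Its log2 fold change was -0.35 ± 0.154 (SE, edgeR adjusted p = 0.312), and -1.20 when the gene was represented by its transcript with the highest mean count, which OE replicate 2 lacks. *GBP3* had a log2 fold change of -0.52 without OE replicate 1 and -0.20 without OE replicate 2.

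*GBP4* (89646827 to 89664625) went the other way, with 164 and 175 counts under vector control against 263 and 315 under OE. Both OE libraries were above both vector control libraries, at 10.7 ± 0.289 CPM against 7.25 ± 0.286 CPM (SD, n = 2 each), 1.47-fold higher. The log2 fold change was 0.56 ± 0.131 (SE, edgeR adjusted p = 0.147, DESeq2 adjusted p = 0.00521), from 0.52 to 0.60 with any library left out, when *GBP4* no longer had an unadjusted p under 0.05 in any of the 4 fits. For every 100 counts of *GBP2* there were 15.2 and 19.0 counts of *GBP4* in the vector control and 46.5 and 53.2 in the OE libraries, a ratio free of the scaling of the libraries. The main transcripts of *GBP2* and *GBP4* are 88.3% identical over 616 aligned bases, so reads could be shared. Of the other *GBP* genes, *GBP5* was lower, with 173 and 161 counts against 114 and 134 (log2 fold change -0.64 ± 0.149 SE, edgeR adjusted p = 0.147). *GBP5* no longer had an unadjusted p under 0.05 without vector control replicate 1, OE replicate 1 or OE replicate 2. *GBP1P1* did not pass an unadjusted p under 0.05, and *GBP6* and *GBP7* were too low to be tested.

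**Figure D3:**
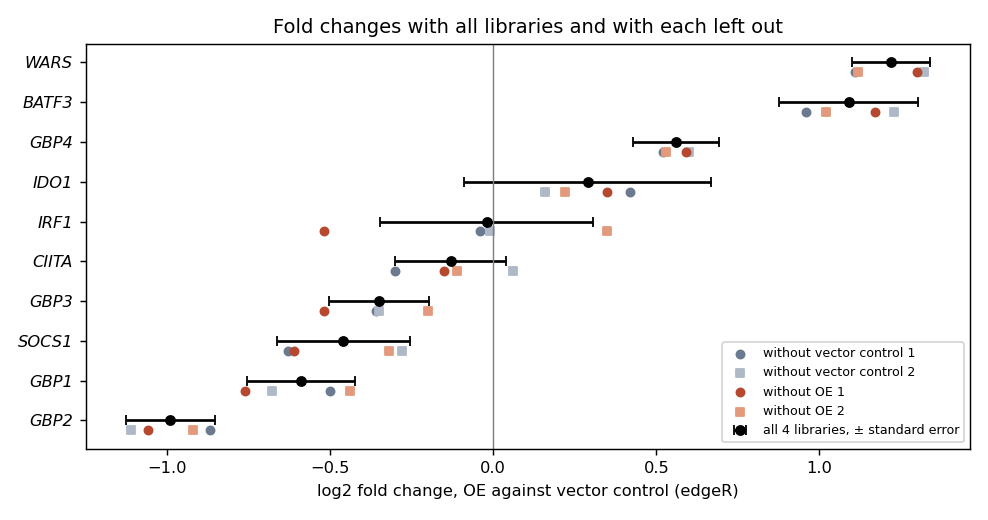
Log2 fold change of the 10 genes, OE against vector control, from edgeR. Black points with bars show all 4 libraries ± standard error, and coloured points show the fits with 1 library left out. *WARS*, *BATF3* and *GBP4* stay above 0 and *GBP1* and *GBP2* below 0 in each, while *IRF1* moves from -0.52 to 0.35.

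WARS charges tRNA with tryptophan, and interferon-gamma is a classical inducer of its gene. *WARS* (chromosome 14, minus strand, 100800127 to 100843142) had 2186 and 2542 counts under vector control against 5513 and 7215 under OE. Each OE library held more than each vector control library by a wide margin. Expression was 101 ± 10.1 CPM in the vector control and 235 ± 21.0 CPM in the OE libraries (SD, n = 2 each), 2.32-fold higher. The log2 fold change was 1.22 ± 0.120 (SE, edgeR adjusted p = 0.0629, DESeq2 adjusted p = 5.5e-19), between 1.11 and 1.32 with each library left out. From 97.3% to 98.9% of the counts were on ENST00000392882.2. On GRCh37 this transcript starts at the start site of the *WARS* window printed above. ENST00000355338.2, which begins at position -1458 relative to that base, had at most 16 counts in any library. Exons of *WDR25* on the other strand overlap those of *WARS*.

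Other aminoacyl-tRNA synthetase genes were set beside *WARS*. Of the 19 tested, 9 were higher and 1 lower at an unadjusted p under 0.05, against 10.1% and 10.7% of all tested genes. Their median log2 fold change was 0.32, against 0.01 over all genes. *SARS*, for serine, was counted 1308 and 1255 times in the control libraries and 2542 and 2976 times after OE (log2 fold change 0.90 ± 0.0832 SE, edgeR adjusted p = 0.0615). *GARS*, for glycine, had a log2 fold change of 0.94, *AARS*, for alanine, 0.67 and *NARS*, for asparagine, 0.48. *WARS2*, the mitochondrial tryptophanyl-tRNA synthetase, was the lower gene, with 355 and 408 counts against 287 and 330 (log2 fold change -0.51, named after its values were seen). The number of higher genes was 4 without vector control replicate 1, 5 without vector control replicate 2, 5 without OE replicate 1, where 0 were lower, and 6 without OE replicate 2. The fold change of *WARS* was larger than that of each of the 19.

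**Figure D4:**
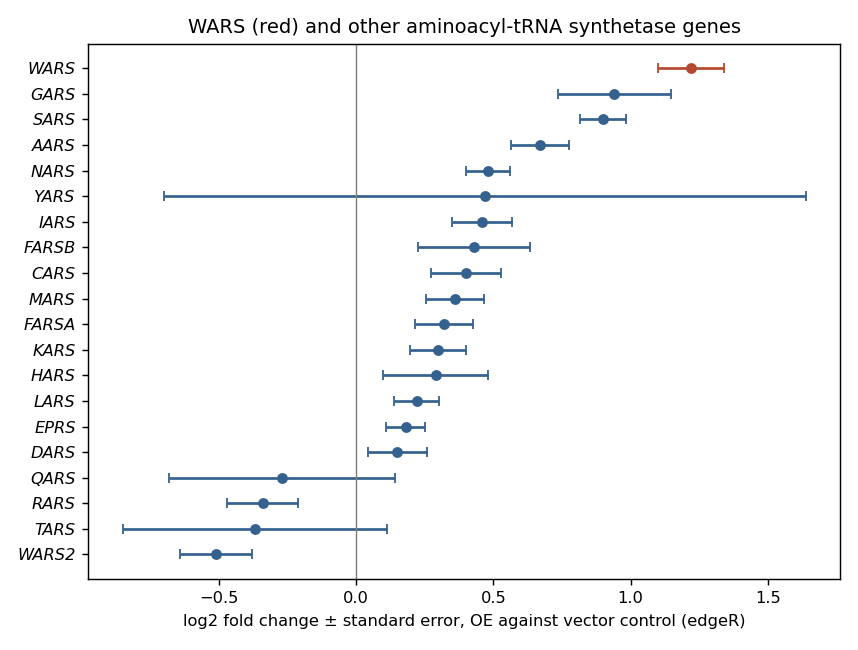
Log2 fold change ± standard error, OE against vector control, of *WARS* (red) and 19 other aminoacyl-tRNA synthetase genes (blue), from edgeR. *WARS* lies highest at 1.22, followed by *GARS* at 0.94 and *SARS* at 0.90, and *WARS2* lies lowest at -0.51.

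IDO1 catalyses the entry step of tryptophan breakdown to kynurenine. *IDO1* (chromosome 8, plus strand, 39759794 to 39786309) was close to the limit of these libraries, with 13 and 11 counts under vector control against 15 and 19 under OE. Both OE libraries were higher in CPM, but the log2 fold change of 0.29 was smaller than its standard error of 0.379 (edgeR adjusted p = 0.716). Represented by its transcript with the highest mean count, *IDO1* had a fitted log2 fold change of 6.99 and an unadjusted p under 0.05, against a vector control at 0 counts, so that this value is set by the prior count of the fit. All *IDO1* counts in the OE libraries were on ENST00000253513.7, which had 0 counts in the vector control, where ENST00000518237.1 held 13 and 8. The former is annotated as a nonsense-mediated decay transcript and the latter as protein-coding. Of 8 other tested genes of tryptophan uptake and breakdown, 1 was higher and 1 lower at an unadjusted p under 0.05. Over all tested genes these shares were 10.1% and 10.7%. *SLC3A2*, the heavy chain of the large neutral amino acid transporter, had a log2 fold change of 0.50 ± 0.0883 (SE, edgeR adjusted p = 0.106). *TDO2*, the other enzyme of the entry step, which did not stay lower at that p without vector control replicate 2 or either OE library, had 42 and 55 counts under vector control against 29 and 29 under OE.

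SOCS1 shuts off JAK kinases in a feedback loop. *SOCS1* (chromosome 16, minus strand, 11348274 to 11350061) was counted 301 and 388 times in the control libraries and 295 and 278 times after OE. In CPM the OE libraries (11.8 and 9.61) were below the vector control libraries (12.9 and 16.5), and the nearest pair was close. For *SOCS1* the log2 fold change was -0.46 ± 0.203 (SE, edgeR adjusted p = 0.309), from -0.63 to -0.28 with each library left out. Over all tested genes 10.1% lay higher and 10.7% lower at an unadjusted p under 0.05. Of 7 other SOCS genes tested, 0 were higher and 1 was lower at that p by edgeR's test. That gene was *SOCS3*, with a log2 fold change of -0.36 ± 0.079 (SE, edgeR adjusted p = 0.134). DESeq2 called 0 of the 7, although it gave *SOCS3* an adjusted p of 8.28e-06, because its log2 fold change was not beyond 0.5. Leaving out either OE library gave 2 lower, and leaving out vector control replicate 2 gave 1 higher.

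Upstream of the 10 genes, *IFNG*, the gene of interferon-gamma itself, had 0 counts in all 4 libraries, which allows up to 3 counts, or from 0.104 to 0.129 CPM. The 11 tested genes of interferon-gamma signalling, which include *SOCS3*, had a median log2 fold change of -0.05. Of 9 other tested IRF and IRF-binding genes, 0 were higher and 1 was lower at an unadjusted p under 0.05 by edgeR's test. Over all tested genes these shares were 10.1% and 10.7%, and DESeq2 called 0 of the 9. The lower gene was *IRF9*, at 24, 21, 5 and 8 counts, outside the rule for named genes. *IRF9* passed the filter on low counts through the vector control libraries alone, so its being lower carries no weight. These numbers of higher and lower genes changed when single libraries were left out. Among BATF3 relatives and partners, *BATF2* had 37 and 35 counts under vector control against 78 and 85 under OE (log2 fold change 0.97 ± 0.199 SE, edgeR adjusted p = 0.125), and did not pass an unadjusted p under 0.05 without OE replicate 1. *JUNB* had a log2 fold change of -0.41 (edgeR adjusted p = 0.122).

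Of 21 other tested targets of interferon-gamma, 4 were higher and 0 lower at an unadjusted p under 0.05 by edgeR's test. Over all tested genes 10.1% were higher and 10.7% lower at that p. Against 4.35% and 4.42% of all genes, DESeq2 called 3 of the 21 higher and 0 lower. Their median log2 fold change was 0.07, and from 3 to 6 were higher and from 0 to 2 lower with each library left out, with 3 higher and 2 lower without OE replicate 1. The T cell chemokine *CXCL11* was counted 18 and 11 times in the control libraries and 72 and 86 times after OE (log2 fold change 2.23 ± 0.331 SE, edgeR adjusted p = 0.0893), and its relative *CXCL10* had a log2 fold change of 3.15. The adhesion receptor *VCAM1* had 845 and 754 counts against 1830 and 2231 (log2 fold change 1.13 ± 0.111 SE, edgeR adjusted p = 0.0629).

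The targets of CIITA could not be read from these counts. All 9 HLA class II genes of the list were listed at 0 in all 4 libraries, as were the interferon-gamma targets *PSMB8*, *PSMB9*, *TAP1* and *TAP2* and the synthetase gene *VARS*, which dividing cells need. All of them lie between *HLA-F* and *HLA-DPB1* on chromosome 6 (29690552 to 33057473), where 127 of 135 protein-coding genes (94.1%) were listed at 0, against 18.0% of all other protein-coding genes. *CD74*, the invariant chain of MHC class II, lies elsewhere. It had 12 and 8 counts under vector control against 33 and 35 under OE (log2 fold change 1.55 ± 0.374 SE, edgeR adjusted p = 0.151), and is named here after its values were seen. It did not pass an unadjusted p under 0.05 without vector control replicate 2 or either OE library.

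The identity of the cells was checked with marker genes. Of 8 neuroblastoma markers, 7 were tested and 6 were higher in the OE libraries at an unadjusted p under 0.05 by edgeR's test. The share over all tested genes was 10.1%, and the median log2 fold change of the markers was 0.96. Among them, *CHGA* had a log2 fold change of 1.39 (edgeR adjusted p = 0.0449), while *TH* was listed at 0. Their summed level was from 500 to 542 CPM in the vector control and from 860 to 900 CPM in the OE libraries. The 8 leukocyte markers summed to between 11.9 and 12.2 CPM in the vector control and between 1.87 and 6.58 CPM in the OE libraries, and *CD3E* and *LYZ* were listed at 0 throughout. The lower sum was carried by *CD68*, at 10.3 and 10.1 CPM under vector control against 0.0797 and 4.36 CPM under OE, and 0 of the 3 tested markers were lower at an unadjusted p under 0.05 by edgeR's test or called by DESeq2. Leaving out either OE library gave 1 lower. Fibroblast and endothelial markers summed to between 1020 and 1160 CPM and between 516 and 1010 CPM, in the same order of groups, with *CDH5* and *VWF* at 0 and *DCN* higher (log2 fold change 1.12). The lowest sum was that of OE replicate 2, where *COL1A1* had 326 CPM against 883 CPM in OE replicate 1 and 897 and 1040 CPM under vector control. None of the 3 tested genes of that list was lower at an unadjusted p under 0.05 by edgeR's test, but 2 were higher and 1 lower without OE replicate 1. *CD68* and *COL1A1* are named after their values were seen. The part of these marker levels in the values of the 10 genes was not tested, and in bulk RNA fewer cells of a kind and less RNA per cell cannot be told apart.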

How the data were processed

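The data were 4 RNA-seq libraries of SK-N-SH cells, 2 per group. Reads were trimmed with Trimmomatic and aligned by the authors to hg19 using Bowtie2. The deposited values are raw counts for 196520 transcripts. The submitters' processing notes also name Picard 2.21.6 and StringTie 2.1.6. The counting tool, its annotation and its use of strand are not given in the sources used here.

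Counts were summed per gene, filtered with filterByExpr, normalized by TMM and tested with edgeR 4.0.16 (R 4.3.3), 2 libraries against 2 without covariates, with Benjamini-Hochberg adjustment over all 20528 tested genes. Standard errors are the log2 fold change divided by the root of the F statistic. DESeq2 1.42.0, the tool the study names, and limma-voom (limma 3.58.1) were alternatives. A count of 0 was read as up to 3 counts, which covers counting error only. The code was tested on simulated counts.

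The members and gene lists were chosen with earlier results of these data known. Named genes are all 10 members and, per list, up to 4 genes with the smallest p under 0.05 and a mean of at least 1 CPM. Some of these genes are not reported here. The listed *PECAM1* was not found in the table. Same-numbered libraries did not deviate together (correlation -0.02). Positions, transcript types and lengths came from the GENCODE annotation lifted to GRCh37, in which 96.1% of the genes were found, and transcripts were aligned with Biopython 1.88. Figures were drawn with matplotlib 3.10.9.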

Additional observations from a re-analysis of the deposited data

How the results depend on the processing

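The number of genes called at an adjusted p under 0.01 stayed at 0 in 9 of 14 alternatives. It was 1800 with DESeq2, 8 with edgeR's non-legacy setting, 9 on genes with at least 1 count in total, 1 with the transcript of the highest mean count, and 122 at an adjusted p under 0.05. Of the 10 genes, from 2 to 4 were higher at an unadjusted p under 0.05 over 13 alternatives, the 4 with the transcript of the highest mean count, where *IDO1* is counted only because its transcript has 0 counts in the vector control and passed the filter through the OE libraries. A group left with 1 library is assumed to vary like the other. From 1 to 4 were lower with each library left out, and 4 with DESeq2, where *GBP3* and *SOCS1* also passed. The median log2 fold change of the 10 genes was between -0.33 and 0.06 with each library left out and 0.11 with the transcript of the highest mean count. The sign of *IRF1* depended on the OE libraries (from -0.52 to 0.35 with each library left out, and 0.36 with the transcript of the highest mean count). The cause was not tested. *WARS*, *BATF3* and *GBP2* kept their sign and an unadjusted p under 0.05 in all 13 alternatives. The labels do not say that a replicate number marks a shared culture. With the number as a replicate block, 3 of the 10 genes were higher and 2 lower, no gene was called (0), 5 synthetase genes were higher, *TDO2* no longer had an unadjusted p under 0.05, and 3 of the other interferon-gamma targets were higher and 1 lower. With 2 libraries per group and genes such as *IDO1* under 20 counts, depth limits what can be seen.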

Other observations

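Some genes of the lists differed widely between the libraries of a group, and are given here as values chosen after they were seen. *SOCS5*, a relative of *SOCS1*, was counted 6068 and 5534 times under vector control, 4765 times in OE replicate 1 and 1 time in OE replicate 2. *YARS*, the tyrosyl-tRNA synthetase gene, was counted 555 and 2493 times under vector control against 655 and 4463 times under OE. *SLC7A5*, the light chain of the large neutral amino acid transporter, was counted 9472 and 1223 times against 3906 and 27942 times. The groups overlapped for *YARS* and *SLC7A5*, and both OE libraries lay below for *SOCS5*.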
